A study of Mus musculus with 12 samples.

Results

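Loci whose 5-hydroxymethylcytosine (5hmC) was gained between proliferating and differentiating progenitors of the mouse cortex, and then stayed near the same level in neurons, are described here. Among 47478 peaks of 5hmC, 217 (0.457%) met this rule, and they lay nearest to 209 genes. A member had a 5hmC level in differentiating progenitors (DP) at least 1.5 above that in proliferating progenitors (PP) on the log2 scale, a gain of at least 2.83-fold, and a level in neurons within 0.5, or 1.41-fold, of that in DP. The 5hmC levels themselves therefore chose the members and are given as a description, whereas 5mC, gene expression, position and sequence took no part in the choice.

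All cells came from the cortex of E14.5 embryos (embryonic day) that carried a Btg2 RFP and a Tubb3 GFP reporter, both heterozygous. PP lacked both reporters, DP carried RFP alone, and neurons were taken for GFP whether or not RFP was present, so that each population is defined by reporter fluorescence and not by lineage tracing. The study lists 12 samples, an immunoprecipitated and an input sample for each of the 3 populations and both marks, and the DNA of the populations was barcoded and mixed before the pull-down. Levels are the authors' means over replicates per cell type, on a log2 scale of normalized reads. No replicate values were available for this work, so neither a spread nor a test is given for any difference, and the depth behind each peak is unknown.

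Cytosine methylation (5mC) is oxidized by TET enzymes to 5hmC, which is both a stable mark of neurons and an intermediate on the way back to unmodified cytosine. In the developing cortex, PP expand the progenitor pool, and DP are committed to generate neurons. A gain of 5hmC can accompany a loss of 5mC at the same site because the first mark is made from the second. In populations sorted in bulk, a mark carried by more cells and a mark carried at more sites per cell cannot be told apart.

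For 4 of the 217 members, part of the peak lay in a RefSeq promoter window, which spans from 250 bases before to 50 bases after a transcription start of the GRCm38.p6 assembly (mm10). Over all 47478 5hmC peaks, 385 had some bases in such a window. Of the members, 3 are printed because a RefSeq start itself lay inside the peak. By the authors' annotation most members lie far from the start of the assigned gene, and distances to other RefSeq starts are not given. These are therefore examples and cannot be taken as typical members. Sequences are on the plus strand, and the capitals mark an E-box, either CAGATG, which is read as CATCTG when it lies on the minus strand, or CAGCTG, letters that proneural basic helix-loop-helix factors recognize.
Trak1, chr9:121382653-121382809, whole peak: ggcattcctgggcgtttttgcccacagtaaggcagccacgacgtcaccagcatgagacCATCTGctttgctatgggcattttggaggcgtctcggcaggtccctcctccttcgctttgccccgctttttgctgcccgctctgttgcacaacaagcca
Gm10007 start, chr19:58296142-58296253, first 112 bases of the peak: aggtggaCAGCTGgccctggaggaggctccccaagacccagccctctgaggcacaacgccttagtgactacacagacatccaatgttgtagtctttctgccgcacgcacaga
Gm20750 start, chr3:52927617-52927864, last 248 bases of the peak: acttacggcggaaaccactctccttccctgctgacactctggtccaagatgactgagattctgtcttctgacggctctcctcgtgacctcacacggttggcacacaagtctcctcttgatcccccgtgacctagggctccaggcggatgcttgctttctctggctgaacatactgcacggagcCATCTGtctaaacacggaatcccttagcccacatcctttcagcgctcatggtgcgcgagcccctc

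The Trak1 peak held 8 CpG dinucleotides, the sites at which both marks are mostly found, and the stretches at Gm10007 and Gm20750 held 3 and 12. Of the 96 5hmC peaks that lay entirely inside a window, the median number was 4.5 CpG. CAGATG was searched on both strands and was present in 17.2% of all 32851 windows of 300 bases and in 10.4% of those 96 shorter peaks, and CAGCTG was present in 16.3% and 7.29%. A match to such short letters is a description of the sequence and not a binding site.

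At the Trak1 locus, inside the gene of a kinesin adaptor that carries mitochondria along axons, the 5hmC level was 1.84 in PP, 5.34 in DP, then 5.39 in neurons. DP and neurons were almost equal there, and PP stood apart. The authors' annotation placed this peak 15772 bp into the gene, whereas a RefSeq start of Trak1 lies at position 121382794, within the peak. Expression of Trak1, on the deposited scale whose unit the table does not name, was 8505 in PP, 12631 in DP, then 21470 in neurons. The 2 non-coding starts were listed under other nearest genes. The peak at the Gm10007 start, assigned to Gm16277, had 5hmC levels of 2.11, 4.85 and 5.16 in PP, DP and neurons, and that at the Gm20750 start, assigned to Cog6, had levels of 2.34, 4.44 and 4.66.

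Among all 5hmC peaks, 1079 (2.27%) gained at least 1.5 from PP to DP, and the members made up 20.1% of these. In most of the others the level was higher still in neurons, by 0.5 or more at 830 loci, and at 32 loci it was lower again by as much. The members had median 5hmC levels of 2.63 in PP, 4.52 in DP, then 4.67 in neurons, set against 4.72, 4.71 and 4.75 over all peaks. They thus started below a typical peak and ended near it. The 830 loci that were higher still in neurons started lower, at 1.58, and had medians of 3.68 in DP and 4.89 in neurons. The median gain of the members from PP to DP was 1.94, or 3.83-fold, with a range from 1.51 to 4.65, and it made up 89.1% of their change from PP to neurons by the median. The corresponding share was 63.0% at the 830 loci. The gap between these shares follows from how the sets were chosen and is not a result. After DP the members' median difference was 0.26, against -0.023 over all peaks. Neurons were above DP at 172 members and below at 45, and above at 22768 of all 47478 peaks. A gain called completed is thus one within the limit of the rule, and most members were somewhat higher in neurons.

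**Figure D1:**
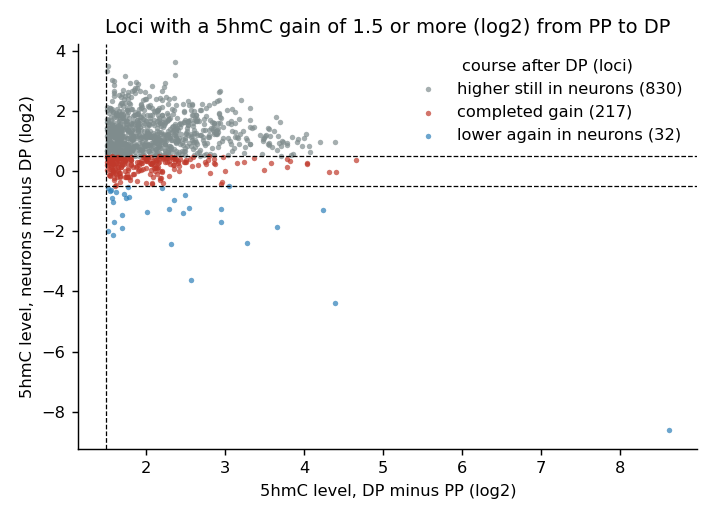
Each point is 1 of the 1079 loci with a 5hmC gain of at least 1.5 from PP to DP (log2). The horizontal axis is the level in DP minus that in PP, the vertical axis the level in neurons minus that in DP, and dashed lines mark the limits of the rule. The 217 completed gains lie in the band between the horizontal lines, the lower edge of a cloud of 830 loci that were higher still in neurons, and 32 loci lie below the band.

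The limits of the rule cut through a continuous distribution. The smallest gains admitted were 1.505 at Atxn1 and 1.506 at Fam133b, and the largest left out were 1.498 at Igf1r and 1.497 at Tpcn1. At the upper limit Eya2 was admitted with neurons 0.498 above DP, and Gm2862 and Wipi1 were left out at 0.501 and 0.502. At the lower limit Zic1 was admitted with -0.474, and Adcyap1r1 was left out with -0.501.

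The largest gain was at Cflar, the gene of an inhibitor of caspase-8. Its 5hmC level was 0.35 in PP, 5.01 in DP, then 5.39 in neurons. Next came a locus 19546 bp downstream of Cck, which encodes the neuropeptide cholecystokinin, with levels of -0.05, 4.35 and 4.34. Snrpa1, a component of the U2 spliceosomal particle, had a locus with -0.05, 3.99 and 4.25. At these 3 loci PP stood apart, near the lowest PP level in the table, and DP and neurons differed by at most 0.38. That lowest level, -0.05, was shared by 105 peaks of which Cck and Snrpa1 were the 2 members.

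Among the others of the 12 largest gains, the locus inside Nuak2, a kinase related to AMPK, had 5hmC levels of 0.35, 4.39 and 4.62 in PP, DP and neurons. That inside Itpr1, the inositol trisphosphate receptor that releases calcium, had 0.67, 4.45 and 4.59. That downstream of Srebf1, a regulator of lipid synthesis, had 0.35, 3.93 and 4.197. All had a PP level below 1. Such low PP levels recurred exactly, at 0.35 for Cflar, Nuak2 and Srebf1, so the sizes and order of the largest gains are uncertain. The other genes were RP23-459I1.1, Usp12, Btbd6, E330013P04Rik and Dab2, with gains from 3.24 to 4.31, and Trak1 with 3.49. A PP level below 2 was seen at 41 members (18.9%), whose median gain was 2.79, and the 176 others had a median gain of 1.80. Among these 176, the largest gains were 3.15 at a second Usp12 peak, with levels of 2.03, 5.18 and 5.44, and 2.99 at Zfp622.

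The members lay on all 19 autosomes, from 0.264% of the 5hmC peaks on chromosome 14 to 0.930% on chromosome 18, and none was among the 1009 peaks on the X chromosome, which allows a share of up to 0.297%. The authors' annotation put 91 (41.9%) inside the assigned nearest gene, 79 upstream and 47 downstream, and over all peaks 36.2% were inside. Only 22 members (10.1%) were within 5 kb of the annotated TSS, as were 14.8% of all peaks, and 191 members (88.0%) were within 100 kb, as were 82.6%. The median distance was 28143 bp. Completed gains, like 5hmC peaks in general, therefore mostly lay more than 5 kb from the annotated TSS. Their median width was 158 bp, with a range from 102 to 378 bp.

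Within 10 kb of 149 members there were 280 5hmC peaks that were not members, and their median 5hmC difference from PP to DP was 0.12, against -0.0035 over all peaks. Of these neighbours 12 (4.29%) gained at least 1.5, as did 2.27% of all peaks with the members included. Of the 209 nearest genes, 7 had more than 1 member and none had 4. The gene with 3 was the non-coding Gm15637, and Zfhx3, Nedd4l, Usp12, Rnf114, Gm12409 and Pabpn1l had 2. Zfhx3, a homeobox factor of neuronal differentiation, had 37 peaks, with 5hmC levels at its 2 members of 2.37, 4.52 and 4.65 and of 3.22, 4.89 and 4.52 in PP, DP and neurons. Nedd4l, a ubiquitin ligase, had 27 peaks, 2 of them members. For 13 genes the member was the only peak, and 42 genes (20.1%) also had 1 or more of the 830 loci, as did 5.78% of all 12848 genes, with no adjustment for the number of peaks per gene.

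Members were next placed by function, from 11 lists that together hold 390 genes. In all, 15 members (6.91%) were nearest to a listed gene, as were 3.86% of the 830 loci and 4.86% of all 5hmC peaks. Axon guidance had the most, with 4 members among 401 peaks (0.998%, against 0.457% over all peaks). The locus in Robo1, the receptor for Slit ligands, had 5hmC levels of 1.84, 4.795 and 4.37 in PP, DP and neurons. The locus in Slit1, one of those ligands, had 1.65, 4.44 and 4.83. The locus in Dcc, the netrin receptor, had 1.54, 4.404 and 4.82. In all 3 the level in PP was low and those in DP and neurons close, with neurons below DP at Robo1. A locus 181225 bp downstream of Efnb2, an ephrin ligand, had 2.99, 4.57 and 4.63. The other peaks of these genes stayed below the gain minimum, with the largest PP to DP difference at 1.39 among 23 peaks of Robo1, 0.496 among 18 of Dcc and 1.22 among 11 of Slit1.

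Expression of these 4 guidance genes differed in course. That of Robo1 was 987 in PP, 1724 in DP, then 18508 in neurons, so that the larger step came after DP. That of Dcc was 778, 8724 and 18177, and that of Slit1 was 1250, 4424 and 11833, with a step in both transitions. That of Efnb2 was 23359, 17377 and 35492, lowest in DP.

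**Figure D2:**
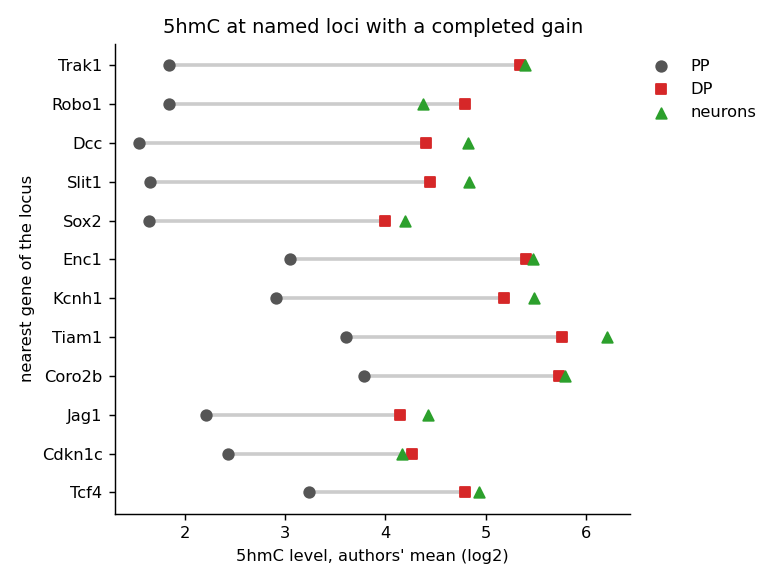
5hmC level (authors' mean, log2) at 12 members named by their nearest gene, with circles for PP, squares for DP and triangles for neurons, and no replicate spread available. In every row the circle stands apart on the left and the square and triangle lie within 0.5 of each other, as the rule requires. PP levels run from 1.54 at Dcc to 3.79 at Coro2b.

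Pathways of progenitor control were also represented. In the Notch pathway, which keeps progenitors undifferentiated, 2 of 83 peaks were members (2.41%, against 0.457% over all peaks). The locus inside Jag1, a Notch ligand, had 5hmC levels of 2.21, 4.15 and 4.43 in PP, DP and neurons, while expression of Jag1 was 2040, 660 and 538. A gain of 5hmC at this locus thus stood beside lower expression of the gene. Jag1 had 6 peaks, and those that were not members had PP to DP differences of at most 0.584, with a median of 0.030. Maml3, a coactivator of Notch, had levels of 2.57, 4.44 and 4.60 and expression of 1678, 1993 and 986. Of the progenitor factors, 1 of 143 peaks was a member (0.699%), 126804 bp downstream of Sox2, the transcription factor that maintains neural stem cells. Its 5hmC levels were 1.65, 4.00 and 4.19, and expression of Sox2 was 16755, 10576 and 1652. Sox2 had 22 peaks, and the median PP to DP difference of those that were not members was 0.072.

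Lists of the cell cycle, bHLH factors and Wnt had a single member each, or 1.01%, 1.75% and 0.358% of their peaks, against 0.457% over all peaks. The locus 70244 bp downstream of Cdkn1c, the cyclin-dependent kinase inhibitor p57, had 5hmC levels of 2.43, 4.26 and 4.16, and expression of 408, 4675 and 5002 in PP, DP and neurons. In DP, 5hmC was near its neuronal level, as the rule requires, and expression was near its own. Cdkn1c had 11 peaks, and those that were not members had a median PP to DP difference of -0.043. The locus inside Tcf4, an E protein that pairs with proneural factors, had levels of 3.24, 4.79 and 4.93, and that inside Ryk, a Wnt receptor, had 2.84, 4.39 and 4.29. Among 292 peaks of genes of the cytoskeleton and migration, the members (0.685%) were Tiam1, a Rac activator, and Auts2, a regulator of neuronal migration. The Tiam1 locus lay 90376 bp upstream of the gene. Among 541 synaptic peaks the members (0.370%) were Grik2, a kainate receptor subunit, and Nrxn2, a presynaptic adhesion molecule. That of Grik2 lay 349262 bp upstream of the gene. Among 238 peaks of voltage-gated channels the member (0.420%) was Kcnh1, a potassium channel. None of 168 peaks of projection neuron identity factors and none of 52 peaks of the enzymes of cytosine methylation and oxidation was a member, which allows shares of up to 1.79% and 5.77%. At counts of 4 or fewer per list, no list can be said to stand apart.

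5mC was read at the same places. A 5mC peak overlapped 67 members (30.9%) by at least 1 bp, as was the case for 36.1% of the 830 loci and 14.2% of all 5hmC peaks. Over the 67 loci, median 5mC levels were 5.16, 4.78 and 3.24 in PP, DP and neurons, against 5.21, 5.15 and 4.82 at all 6733 overlapped peaks. 5mC at the members was therefore typical in PP and low in neurons. The median difference was -0.39 between PP and DP and -1.18 between DP and neurons, and over all overlapped peaks it was -0.05 and -0.29. In the whole 5mC table the median level was lower by 0.18 in neurons than in DP, and relative to that shift the members' median difference from DP to neurons was -0.997.

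**Figure D3:**
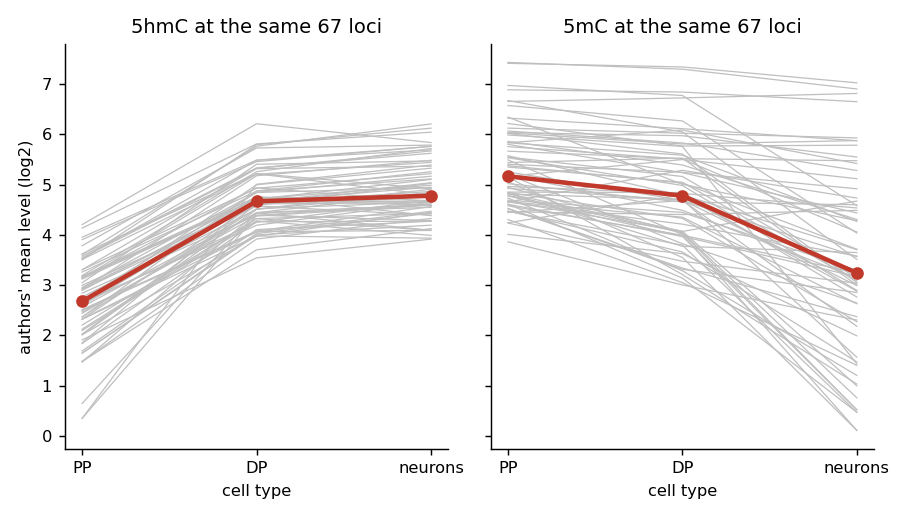
Levels of 5hmC on the left and 5mC on the right (authors' means, log2) in PP, DP and neurons at the 67 members that overlap a 5mC peak, 1 grey line per locus, with the median in red. The red line of 5hmC climbs mostly between PP and DP and only slightly after, as the rule requires, and that of 5mC declines from 5.16 to 4.78 and then to 3.24 in neurons.

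Of the mean 5mC change from PP to neurons at these loci, 25.7% was present in DP (28.4% relative to the table-wide shifts), and at the 300 overlapped loci where 5hmC was higher still in neurons the share was 16.2% (19.0%). 5mC was lower in DP than in PP at 60 of the 67 members (89.6%), and at 56.1% of all overlapped peaks. It was at least 1.5-fold lower at 24 members (35.8%), against 7.78% of all overlapped peaks and 13.3% of the 300 loci. From DP to neurons 46 members (68.7%) were at least 1.5-fold lower, against 28.3% of all overlapped peaks, and 66.3% of the 300 loci were. From PP to neurons the members numbered 48 (71.6%), with a background of 31.7%, and the 300 loci gave 74.3%.

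These contrasts cannot be tested without replicates. The median 5mC difference from PP to neurons was -1.70 at the members and -1.09 at the 300 loci (-1.51 and -0.91 relative to the table-wide shift). Of the 12 overlapped loci where 5hmC was lower again in neurons, 6 were at least 1.5-fold lower in 5mC from PP to DP and 10 from PP to neurons, so that the larger share in DP was not particular to completed gains. The members and the 300 loci also differed in 5hmC level. Among loci with a DP level from 4 to 5, 27.9% of 43 members and 14.0% of 100 other loci were at least 1.5-fold lower in 5mC in DP than in PP. Among those with a PP level from 2 to 3, the shares were 28.1% of 32 and 11.8% of 85.

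**Figure D4:**
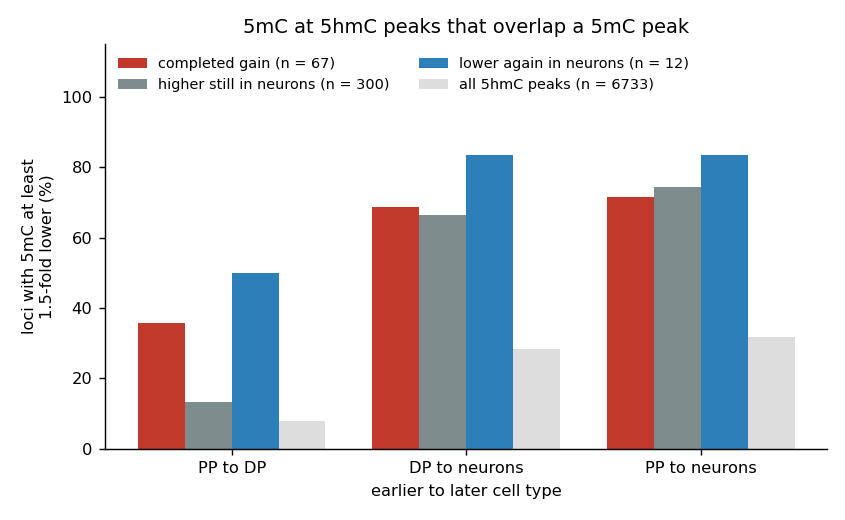
Percentage of loci whose 5mC level was at least 1.5-fold lower in the later cell type, for 3 pairs of cell types, with 1 bar per set of 5hmC peaks that overlap a 5mC peak (n in the legend) and no replicate error available. From PP to DP the bar of the completed gains stands at 35.8% and that of the loci higher still in neurons at 13.3%, while in the other pairs these bars are nearly level. The set that was lower again in neurons holds 12 loci.

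At the members with the largest 5mC decrease, levels in neurons were far below those in PP. At Coro2b, which encodes an actin-binding coronin, 5mC stood at 5.49 in PP, 4.01 in DP, then 0.11 in neurons, and that of 5hmC was 3.79, 5.73 and 5.79. At Enc1, an actin-associated protein of the nervous system, 5mC was 5.06, 3.55 and 0.11 and 5hmC was 3.05, 5.40 and 5.47. Expression of Enc1 was 13262, 34832 and 60940, and that of Coro2b 5829, 9440 and 11447. At both loci 5mC was lower in each later cell type, and 5hmC did not differ between DP and neurons by more than 0.07. Such low neuronal 5mC levels recurred exactly, at 0.11 for Coro2b and Enc1 and at 0.47 for Nuak2 and Sox2. The sizes of these decreases are therefore uncertain.

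The other 4 loci of this kind were nearest to Agpat4, Pitpnb, Nuak2 and Pik3r1, that of Pitpnb 99616 bp upstream of the gene. At Pik3r1, the regulatory subunit of PI3-kinase, 5mC was 5.15 in PP, 3.21 in DP, then 1.03 in neurons, with expression of 1582, 4446 and 6150. At a locus 139998 bp upstream of Agpat4, an enzyme of phospholipid synthesis, 5mC was 5.99, 5.76 and 1.44. Nearly all of this decrease lay between DP and neurons. At the Sox2 locus 5mC was 4.47, 3.795 and 0.47. At the other end, 5mC in neurons was at or slightly above its PP level at 6430550D23Rik, Smyd2, 1200011I18Rik and Ebf3, by 0.0069 to 0.16. At Ebf3, a transcription factor gene, 5mC was 4.66, 4.07 and 4.67, although 5hmC was 2.71, 4.84 and 4.94.

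Expression of the nearest genes was then compared, as log2 of the value plus 1. From PP to DP, 63 of the 209 genes (30.1%) were at least 1.5-fold higher and 31 (14.8%) at least 1.5-fold lower, against 15.1% and 17.8% of the 12848 genes in the table. From DP to neurons 74 (35.4%) were higher and 51 (24.4%) lower, against 28.1% and 26.8%. From PP to neurons 95 (45.5%) were higher and 51 (24.4%) lower, against 31.6% and 31.5%. The genes near the 830 loci gave 25.7%, 37.3% and 44.6% higher for the same pairs, close to the members' shares. These backgrounds count each gene once, however many peaks it has. Counted per locus, 31.3% of members had a gene higher from PP to DP, against 19.7% of all peaks. From DP to neurons the shares per locus were 35.9% and 32.8%, so the difference there was small. No share per locus is given from PP to neurons.

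**Figure D5:**
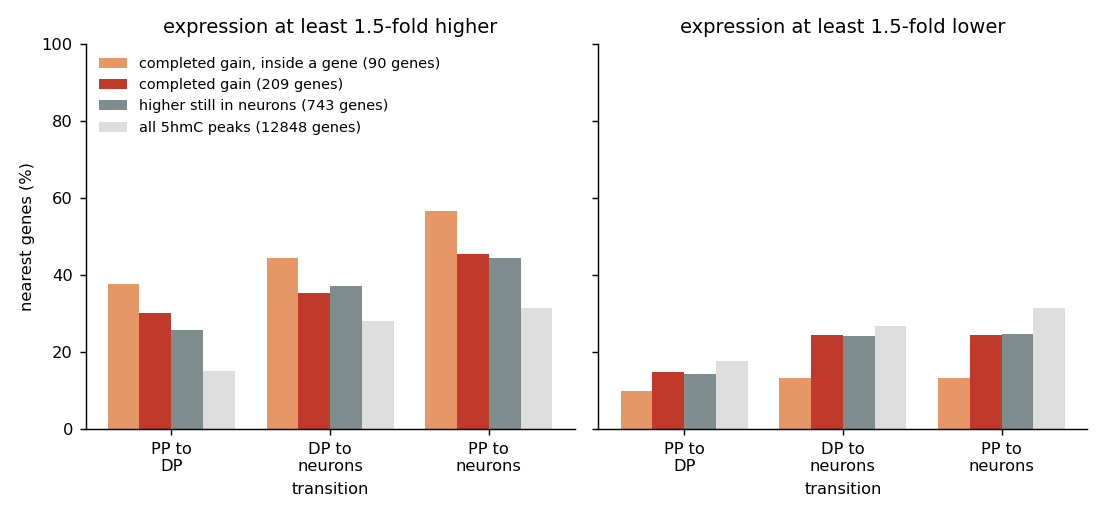
Percentage of nearest genes with expression at least 1.5-fold higher (left) or lower (right) in the later cell type, for 3 pairs of cell types, with 1 bar per set (number of genes in the legend) and no replicate error available. Completed gains inside a gene have the tallest bars on the left, at 37.8%, 44.4% and 56.7%, and the shortest on the right. Their matched sets are not drawn. Loci inside a gene that were higher still in neurons gave 31.0%, 41.4% and 52.5% higher. All genes with a 5hmC peak inside gave 17.3%, 31.8% and 36.2%.

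The members were also split by position inside or outside the gene assigned as nearest. A locus outside that gene may lie within another. A RefSeq gene overlapped 76.5% of the members, whereas the annotation put 41.9% inside. Of the 90 genes with a member inside, 51 (56.7%) were at least 1.5-fold higher in neurons than in PP and 12 (13.3%) lower, against 36.2% and 29.9% of all genes with a 5hmC peak inside. The 326 genes with one of the 830 loci inside gave 52.5% and 22.1%, so that the higher share inside genes was seen in both sets. Of the 120 genes with a member outside, 45 (37.5%) were higher and 39 (32.5%) lower, against 31.2% and 32.3%. The distance from the background was greater for loci inside the gene, a difference that was not tested. These backgrounds again count each gene once, however many peaks it has. Shares per locus, which were higher for all peaks above, are not given for this split. Whether a 5mC peak overlapped made little difference, with 29.9% of genes higher from PP to DP in both cases.

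Of 155 nearest genes with an expression of at least 100 in a cell type, the one with the largest increase from PP to DP was Chga, which encodes chromogranin A of secretory granules, at 153 in PP, 2989 in DP, then 6221 in neurons. Rab3c, a GTPase of synaptic vesicles, had 131, 1402 and 16273, and Adamts17, a secreted metalloprotease, had 57.3, 551 and 3923. In these, as in Dcc, neurons were highest. 9630028B13Rik had 266, 2682 and 839 and 2700046A07Rik had 11.6, 151 and 52.2, both with a maximum in DP, while Ptchd2, like Cdkn1c, was close to its neuronal level in DP. Among the genes with the largest decreases from PP to DP was Cpne5, a calcium-dependent membrane-binding protein, at 169, 36.9 and 126. Jag1, Atxn1, Wisp1 and Kif26a were others. Kif26a, an unconventional kinesin, had 11129, 5022 and 23928 and was thus lowest in DP. In sum 33 genes (15.8%) were at least 1.5-fold higher in both transitions, against 8.02% of all genes, 20 (9.57%) were higher in the first and within 1.5-fold in the second, against 3.92%, and 10 (4.78%) were higher in the first and lower in the second, against 3.17%.

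The expression columns come from the authors' earlier RNA-seq of the same 3 cell types and not from the cells profiled here, so they check the sort only indirectly. All 7 measured PP markers were highest in PP, all 7 DP markers in DP and all 6 neuron markers in neurons. All 5 interneuron markers were also highest in neurons, with a summed expression of 982 in PP, 3687 in DP, then 10781 in neurons. All 5 microglial and 5 of 6 endothelial markers were highest in PP, with sums in PP of 379 and 541, against 229023 for the PP markers. The 3 measured meningeal and mesenchymal markers summed to 1363, 457 and 59.6 in PP, DP and neurons, and the 6 of the oligodendrocyte lineage to 1324, 1146 and 536. The part of these other cells in the gain was not tested.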

How the data were processed

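MeDIP and hMeDIP were run by the authors on PP, DP and neurons sorted at E14.5. Per the paper's methods, reads were aligned to mm10 with BWA 0.7.8-r455 and peaks were called with SICER 1.1, merged where found in all replicates, and stripped of repeats. Versions are those of the submitters' processing notes, which also list DiffBind and HOMER 4.7. The deposited levels are log2 of mean TMM-normalized reads per cell type, computed by the authors in DiffBind. The deposited expression columns are a score whose unit is not named, taken by the authors from their earlier RNA-seq, and the deposited distance to the TSS is in bp. In each table, 10 columns hold the authors' own comparisons (folds, p-values and adjusted p-values) and were not used. Samples were grouped by labels, but columns are pooled per cell type, so no test was possible. The paper reports read numbers per sample, but the depth behind each peak is unknown.

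All 47478 5hmC and 55085 5mC rows were used without a filter, 5 of the 5hmC rows repeating a peak and none of these a member. Members followed the rule on 5hmC levels, and members and gene lists were chosen with earlier results of these data known. Peaks of both marks were paired at an overlap of at least 1 bp. Expression was compared per gene symbol (the first row of a symbol) as log2 of the value plus a pseudocount of 1, and a change was called at 1.5-fold. Upper limits for a count of 0 correspond to 3 counts and, like shares of loci, cover counting error only. Named genes were the 12 largest gains, those beside each limit of the rule, members in the lists, the 6 largest decreases and 4 largest increases of 5mC, and the 8 largest increases and 6 largest decreases of expression from PP to DP among genes reaching 100. Some genes that this rule names are not reported here. Gene coordinates and promoter windows came from RefSeq on GRCm38.p6. With no genome sequence used here, the sequences shown are those within promoter windows and not those of the largest gains. The rule and the pairing were checked on simulated data. Alternatives were other limits of the rule, centred levels, other overlaps, folds, pseudocounts, positions and filters. Python 3.11.15, pandas 2.3.3, numpy 2.4.6, scipy 1.17.1 and matplotlib 3.10.9 were used.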

Additional observations from a re-analysis of the deposited data

How the results depend on the processing

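Of 49 values under alternative settings, 37 stayed within 1.5 times the main count or within the 95% binomial interval of the main value. The counts on autosomes and with repeated peaks taken once are among these 37 but could not move. No member lies on the X chromosome or repeats a peak. No median changed sign, and for counts and shares a change of direction was not defined. Many settings reuse the same members, and the interval treats loci as independent, so staying inside it is a weak check. The number of members depended on the limits of the rule. It was 620 at a gain of at least 1.0 and 99 at 2.0, and 93 with neurons within 0.25 of DP and 507 within 1.0. The median 5mC difference from PP to DP was -0.23 at the 44 loci with a mean 5mC level of at least 4. At a 2-fold limit, the share of genes with higher expression was 18.7% between PP and DP and 25.4% between DP and neurons, against 9.08% and 19.2% of all genes. At the 1.5-fold limit it was 37.8% and 44.4% for members inside a gene, against 17.3% and 31.8% of all genes with a 5hmC peak inside. The share of members overlapping a RefSeq gene was 76.5%, against 63.7% of all peaks. Within 2 kb of the TSS lay 3.69% of the members and within 10 kb 21.7%, both below the shares of all peaks (6.63% and 25.8%). The 4 settings that left out members with a PP level below 2 from the 5mC and expression results were chosen after seeing the data, and each stayed within the interval. No paired analysis was possible because the deposited columns are means per cell type and carry no replicate, and for the same reason no replicate could be left out. The E-box share in the central 200 bp was not run, since no genome sequence was used here. Unknown depth behind each peak limits every level, most of all the lowest.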
